A study of Rattus norvegicus with 11 samples.

Results

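Kcnj15, Slc12a2, Cftr, Clcn3, Slc34a1 and Clcn2 were followed as genes that move potassium, chloride and phosphate across cell membranes. They were taken by name as transport genes, with earlier results of these data known. Of the 6 genes, 5 had probe sets that the annotation assigned to 1 gene only, 12 probe sets in all, out of 8740 probe sets tested and 4736 genes. Clcn2 was not analysed here. RNA came from rat alveolar epithelial cells in 3 groups: 4 arrays of freshly isolated type II (TII) cells at day 0, 4 arrays of freshly isolated type I (TI) cells at day 0, and 3 arrays of TII cells at day 7 of culture. No strain, age or sex of the rats, purity of the isolates or culture surface is given in the labels. Separate animals or isolations are not named for the arrays either, so a p-value here reflects the scatter among arrays, which may be technical. The groups were read from the sample descriptions and titles, since the source field calls every array TI cells. Setting fresh TI against fresh TII asks how the alveolar cell types differ, and the cultured cells show how TII levels stood at day 7.

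TI cells are thin and cover most of the alveolar surface, while TII cells are cuboidal and make surfactant. Both move ions, and water follows. Slc12a2 (NKCC1) carries sodium, potassium and chloride into the cell together across the basolateral membrane and so loads it with chloride. Cftr is a chloride and bicarbonate channel opened by cAMP and ATP. Kcnj15 (Kir4.2) is an inward rectifier potassium channel, a class that lets potassium recycle and holds the membrane potential. Clcn3 is a chloride/proton exchanger found mostly on endosomes, Clcn2 is a plasma membrane chloride channel, and Slc34a1 (NaPi-IIa) is the sodium phosphate cotransporter best known from the kidney proximal tubule.

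Values are log2 array signals as deposited, and a level on 1 probe set cannot be set against that on another. The defining markers followed the labels of the fresh groups. The cultured TII arrays had the lowest type II marker sum and a type I marker sum between those of the fresh groups. The summed linear signal of 8 type I markers was 1920 to 2050 on the fresh TII arrays, 11500 to 12300 on the fresh TI arrays and 3220 to 4390 on the cultured arrays. For 7 type II markers it was 28500 to 30600, 3950 to 10200 and 874 to 1240 in the same order. Markers of other cells were not at 0: 8 airway markers summed to 4330 to 5180 on fresh TII, 619 to 642 on fresh TI and 537 to 803 on cultured arrays, with Scgb1a1, the club cell secretory protein, at 10.84 to 11.15 on fresh TII arrays, 7.42 to 7.89 on fresh TI and 8.06 to 8.63 on cultured ones. That sum followed Scgb1a1, Cyp2f4 and Aldh1a1. Of the 8 markers, 4 were lower and 3 (Krt5, Muc5ac and Dnah1) higher in fresh TI than in fresh TII, and 4 were lower and 0 higher in culture. The 8 macrophage and leukocyte markers summed to 2210 to 2570, 633 to 1090 and 416 to 720, which followed 1 bright member, Cd74, at means of 11.03, 9.13 and 7.41. In fresh TI, 2 of them (Cd74 and Cd14) were lower and 2 (Ptprc and Cd4) higher, and in culture Cd74 was lower while Fcgr2b (1.78) and Itgam (0.57) were higher. The 14 fibroblast and smooth muscle markers summed to 931 to 1200, 1960 to 3550 and 2920 to 3680. In fresh TI 8 of them were higher and 0 lower, with Col3a1 at 2.52, whereas in culture 3 were higher (Tagln at 5.03, Bgn and Acta2), Eln was lower (−0.64) and 10 were not called. The 9 endothelial markers summed to 502 to 667 over all arrays. Of these, 4 were higher and 1 lower in fresh TI, and 1 was higher and 1 lower in culture. As a background to these marker counts, fresh TI exceeded fresh TII by the same test for 33.0% of all genes and fell below it for 21.2%. Cultured cells did so for 20.5% and 14.0%. For the beta-actin controls, signal at the 3′ end exceeded that at the 5′ end by 0.32 to 0.43 on fresh TII arrays. It did so by 0.21 to 0.42 on fresh TI and by −0.33 to −0.083 (5′ end brighter) on cultured arrays. For the GAPDH controls the excess was 0.474 to 0.569, 0.412 to 0.685 and 0.302 to 0.451 in the same order.

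Kcnj15 and Slc12a2 were high in fresh TII cells and low in both other groups. On the linear scale, fresh TI cells had 16.5% of the fresh TII signal of Kcnj15 and 18.5% of that of Slc12a2 on its brightest probe set. Cultured TII cells had 10.9% and 33.3%. Cftr, Clcn3 and Slc34a1 differed between groups by less than 1 log2 unit on all 7 of their probe sets. Because each array holds RNA of many cells, fewer cells of a type and less RNA per cell cannot be told apart.

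**Figure D1:**
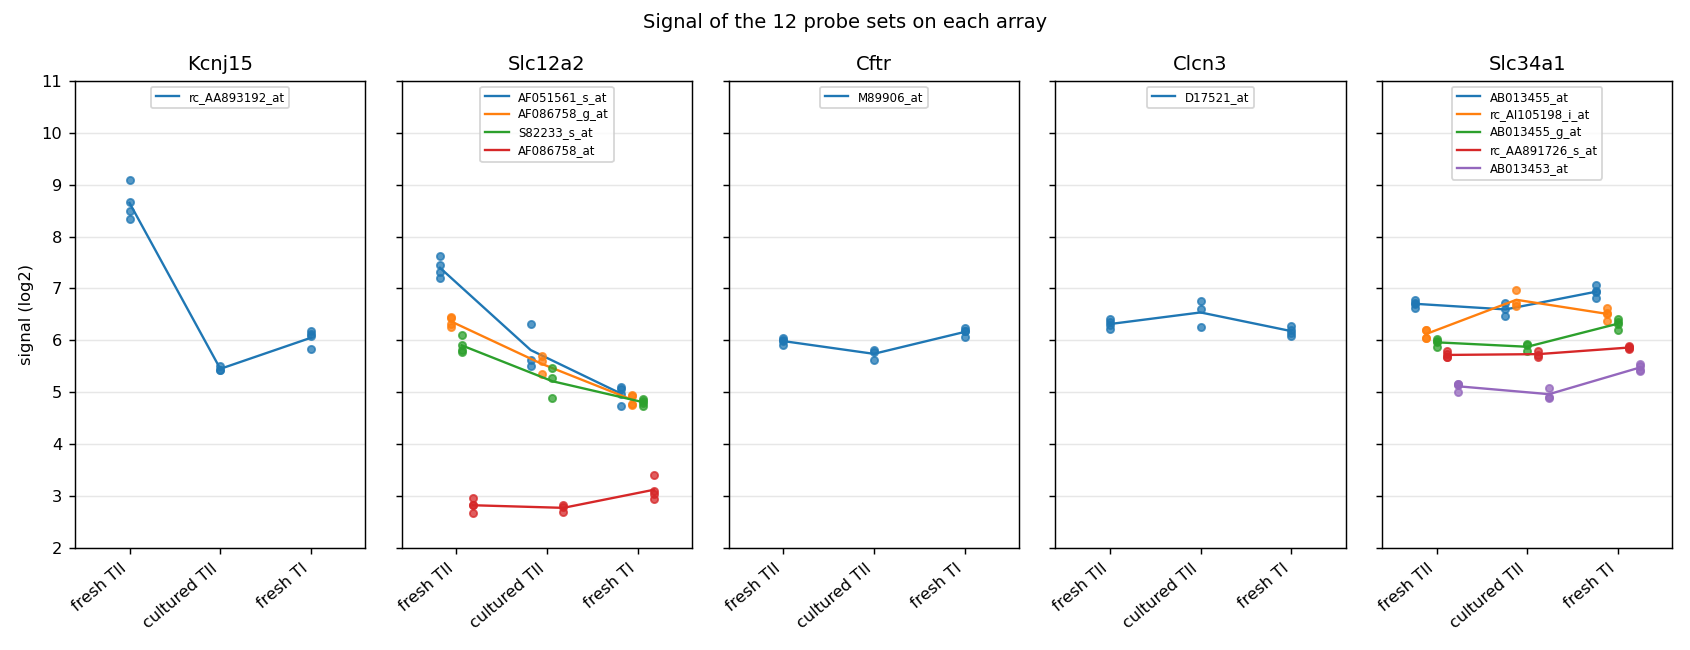
Log2 signal (y axis) of the member probe sets on each array (x axis, by group), 1 point per array, with a line joining the group means. Kcnj15 lies between 8.34 and 9.09 on the fresh TII arrays and between 5.42 and 6.17 on all others, while Clcn3 overlaps between groups.

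The promoters of these 2 genes are shown because they are the members with the large changes. Each is the 250 bases before the gene's start in RefSeq (GRCr8), Kcnj15 at chr11:48070700-48070949 and Slc12a2 at chr18:53546083-53546332, both on the plus strand. Capitals mark CAAGTG, a core bound by NKX2 factors, and GCAAACA, a forkhead core, both searched on both strands.
Kcnj15: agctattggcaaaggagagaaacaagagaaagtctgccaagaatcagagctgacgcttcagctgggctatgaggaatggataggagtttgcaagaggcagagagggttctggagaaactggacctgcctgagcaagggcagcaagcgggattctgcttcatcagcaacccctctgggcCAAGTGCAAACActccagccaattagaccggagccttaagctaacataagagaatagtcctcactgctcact
Slc12a2: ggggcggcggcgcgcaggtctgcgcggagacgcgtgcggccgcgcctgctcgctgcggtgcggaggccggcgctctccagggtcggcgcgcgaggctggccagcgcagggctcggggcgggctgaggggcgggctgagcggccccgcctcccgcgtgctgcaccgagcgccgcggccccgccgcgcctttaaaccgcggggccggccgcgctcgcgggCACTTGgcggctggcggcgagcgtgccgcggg
In Kcnj15, CAAGTG lay 72 to 67 bases before the start and GCAAACA overlapped it by 1 base, at 67 to 61. Slc12a2 held CAAGTG on the minus strand (printed as CACTTG), 32 to 27 bases before the start. Of 33469 rat promoters of that length, 11.7% hold CAAGTG and 4.16% hold GCAAACA. The bases G and C made up 50.8% of the Kcnj15 promoter and 83.2% of that of Slc12a2, against a median of 51.2%. The motifs were chosen after the values and sequences had been seen, and a match of letters is a description only.

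Kcnj15 (Entrez 170847, probe set rc_AA893192_at) gave 8.67, 8.50, 9.09 and 8.34 on the fresh TII arrays. The fresh TI arrays gave 5.84, 6.17, 6.12 and 6.07, and the cultured TII arrays 5.42, 5.50 and 5.42. The 3 groups did not overlap, with fresh TII highest and cultured TII lowest. Fresh TI minus fresh TII was −2.60 log2 units (SE 0.13, 6.06-fold lower, adjusted p = 8.91e-09 by limma), a greater absolute difference than on 98.7% of probe sets. Cultured minus fresh TII was −3.20 (SE 0.15, 9.19-fold lower, adjusted p = 2.44e-09). Fresh TI lay 0.60 above cultured TII (SE 0.15, 1.52-fold, adjusted p = 0.00374). On fresh TI replicates 1 to 4, surfactant genes gave 11.94, 12.41, 12.51 and 10.73 for Sftpc and 9.20, 10.04, 9.95 and 8.22 for Sftpb. Their part in the Kcnj15 signal of these arrays was not tested.

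Slc12a2 (Entrez 83629) was read by 4 probe sets, of which 3 gave 1 order, fresh TII above cultured TII above fresh TI. The brightest, AF051561_s_at, gave 7.44, 7.31, 7.64 and 7.20 on fresh TII arrays, 6.32, 5.50 and 5.62 on cultured TII arrays, and 4.74, 5.10, 4.96 and 5.07 on fresh TI arrays. No array of one group reached into another, and replicate 1 stood highest among the cultured arrays. Fresh TI minus fresh TII was −2.43 (SE 0.16, 5.39-fold lower, adjusted p = 8.54e-08 by limma). Cultured minus fresh TII was −1.59 (SE 0.17, 3.0-fold lower, adjusted p = 9.24e-06), and fresh TI minus cultured TII was −0.84 (SE 0.17, 1.80-fold lower, adjusted p = 0.00127).

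The next probe sets gave the same order with smaller differences. AF086758_g_at fell from 6.25 to 6.45 on fresh TII arrays to 5.35 to 5.70 on cultured and 4.76 to 4.94 on fresh TI arrays. Its differences were −1.51 for fresh TI minus fresh TII, −0.82 for cultured minus fresh TII and −0.70 for fresh TI minus cultured TII, each called (largest adjusted p = 6.4e-05). S82233_s_at ran from 5.78 to 6.11 on fresh TII arrays, 4.89 to 5.47 on cultured and 4.73 to 4.86 on fresh TI arrays, and its differences were −1.10, −0.69 and −0.40 (adjusted p = 6.14e-06, 0.000597 and 0.0132). Without cultured replicate 1, the last of these was −0.27 and lost its call (adjusted p = 0.0707). The fourth probe set, AF086758_at, was dim, at 2.67 to 3.41 on all 11 arrays, and did not fall in fresh TI. Fresh TI minus fresh TII was +0.30 (adjusted p = 0.0229, arrays overlapping). This call was lost in 5 of 20 alternatives, such as with quantile normalization (0.16, adjusted p = 0.164). Fresh TI minus cultured TII was +0.35 (adjusted p = 0.014, no overlap), opposite to the other probe sets. That call was lost in 4 of 20 alternatives. The TI to TII difference was smaller than on the brightest probe set by 0.92, 1.33 and 2.73 on the others, and within-array differences did not overlap between the groups (exact permutation p = 0.0286, two-sided, the smallest that 4 against 4 arrays allow, and 0.1 adjusted over 21 such tests). Which stretch of the transcript each probe set reads was not analysed here.

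Fresh TI and cultured TII cells thus both sat below fresh TII, but in opposite order for the 2 genes. The log2 signal of Slc12a2 minus that of Kcnj15 was −1.16 to −1.01 on fresh TI arrays and −0.004 to 0.89 on cultured arrays. This gap between groups was −1.44 (exact permutation p = 0.0571, two-sided, the smallest possible with 4 against 3 arrays). The pair was chosen after its values were seen. Each gene already separated these groups without overlap, in opposite directions, so this p was fixed beforehand and gives no support. All 7 type II markers, the airway markers Scgb1a1, Cyp2f4, Aldh1a1 and Foxj1, and Cd74 were also lower in fresh TI and in culture than in fresh TII. The other 4 airway markers were higher or not called, and the other leukocyte markers went both ways, as given above. The actin 3′ to 5′ signal was lower on the cultured arrays, while that of GAPDH overlapped between cultured and fresh TI arrays. Their part in the Kcnj15 and Slc12a2 differences was not tested.

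Cftr (Entrez 24255, probe set M89906_at) moved little. Fresh TII arrays gave 5.92, 5.99, 6.0 and 6.04, cultured TII arrays 5.82, 5.78 and 5.62, and fresh TI arrays 6.25, 6.17, 6.05 and 6.17. The groups did not overlap, but the steps between them were small, with fresh TI highest and cultured TII lowest. Fresh TI was 0.42 above cultured TII (SE 0.075, 1.34-fold, adjusted p = 0.000446 by limma). Cultured minus fresh TII was −0.25 (SE 0.075, 1.19-fold lower, adjusted p = 0.0212), a call lost without cultured replicate 3 (−0.19, adjusted p = 0.1) or without fresh TII replicate 4 (−0.23, adjusted p = 0.0621). Fresh TI was 0.18 above fresh TII (SE 0.069, 95% interval 0.025 to 0.33, adjusted p = 0.0475), a call that median centring of the arrays ended (0.13, adjusted p = 0.114), as did leaving out any 1 of 9 of the 11 arrays. That difference was close to the median of all probe sets, 0.12.

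Clcn3 (Entrez 84360, probe set D17521_at) gave 6.40, 6.35, 6.21 and 6.29 on fresh TII arrays, 6.76, 6.60 and 6.25 on cultured TII arrays, and 6.21, 6.09, 6.28 and 6.13 on fresh TI arrays. All 3 groups overlapped, and cultured replicate 3 sat among the fresh arrays. Neither fresh TI (−0.14, 95% interval −0.35 to 0.082, adjusted p = 0.26) nor cultured TII (0.22, 95% interval −0.011 to 0.46, adjusted p = 0.142) passed the test against fresh TII. Without cultured replicate 3 the culture difference was 0.37 (adjusted p = 0.0074). Fresh TI minus cultured TII was −0.36 (SE 0.11, adjusted p = 0.0128), which was lost without cultured replicate 1 (−0.25, adjusted p = 0.0693).

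Slc34a1 (Entrez 25548) was read by 5 probe sets that did not move as one. AB013455_at gave 6.70, 6.63, 6.78 and 6.71 on fresh TII arrays, 6.47, 6.60 and 6.72 on cultured TII arrays, and 6.95, 6.93, 6.82 and 7.06 on fresh TI arrays. Fresh TI was highest on it with no overlap, and the 2 TII groups overlapped. Fresh TI was above fresh TII by 0.23 on this probe set, 0.39 on rc_AI105198_i_at, 0.36 on AB013455_g_at and 0.36 on AB013453_at (largest adjusted p = 0.0212), while rc_AA891726_s_at was 0.14 higher and missed the threshold (adjusted p = 0.0603). The call on AB013455_at was lost without fresh TII replicate 2 (0.21, adjusted p = 0.0628) or fresh TI replicate 4 (0.19, adjusted p = 0.0538).

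In culture, 1 of the 5 Slc34a1 probe sets was called. rc_AI105198_i_at gave 6.04, 6.19, 6.04 and 6.21 on fresh TII arrays and 6.97, 6.65 and 6.73 on cultured arrays, with no overlap. Its rise was 0.66 (SE 0.093, 1.58-fold, adjusted p = 8.59e-05). The other 4 lay between −0.15 and 0.016 (lowest adjusted p = 0.155), though AB013453_at was called with array weights (−0.19, adjusted p = 0.0211). Against AB013455_at on the same arrays, the rise was greater by 0.77 (exact permutation p = 0.0571, two-sided, the smallest that 3 against 4 arrays allow). Adjusted over 21 such tests, this p was 0.1. The comparison is named because the probe set was already called, so it gives no separate support. The suffix i marks a set with fewer probes than the design called for. Fresh TI minus cultured TII was −0.27 on this probe set (adjusted p = 0.0234). That call was lost in 6 of 22 alternatives, such as without cultured replicate 1 (−0.18, adjusted p = 0.123). The same difference was 0.34, 0.45 and 0.51 on AB013455_at, AB013455_g_at and AB013453_at (largest adjusted p = 0.00354).

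**Figure D2:**
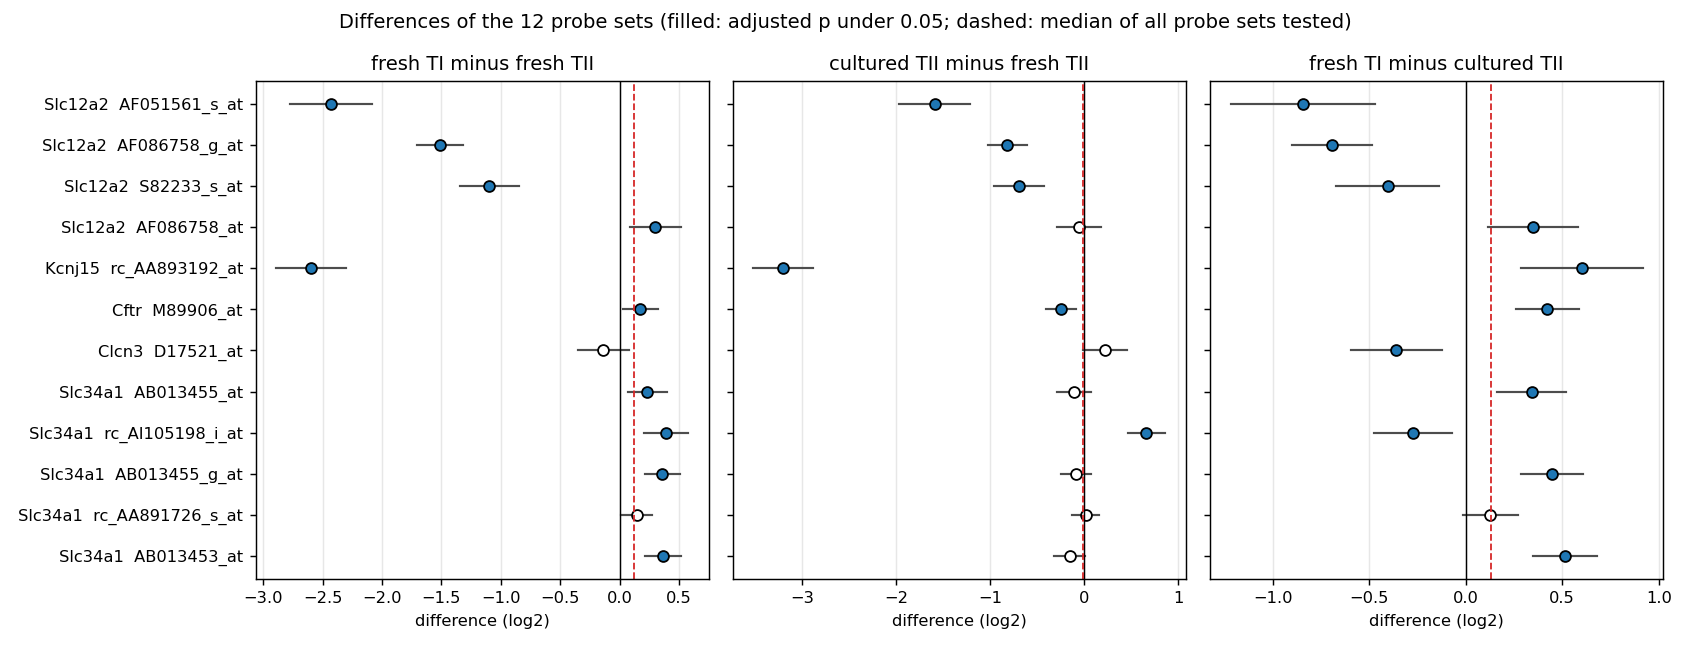
Log2 difference (x axis) of each member probe set in the 3 comparisons, with the limma estimate as a point and its 95% interval as a bar. Kcnj15 and 3 Slc12a2 probe sets lie below −1 in fresh TI minus fresh TII, and no other member probe set passes 1 log2 unit in any comparison.

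Counted together, 10 of the 12 member probe sets were called in fresh TI minus fresh TII (6 higher, 4 lower), against a background of 54.7% (34.3% higher, 20.4% lower). Arrays of the groups did not overlap on 10 of the 12, and on 50.7% of all probe sets. The 4 lower ones, Kcnj15 and 3 of Slc12a2, were also the only members at least 2-fold apart, against 7.49% of all probe sets. In cultured minus fresh TII, 6 of 12 were called (1 higher, 5 lower), 6 had no overlap and 2 were at least 2-fold apart. Over all probe sets these shares were 33.4% (19.1% higher, 14.3% lower), 43.3% and 8.67%. In fresh TI minus cultured TII, 11 of 12 were called (6 higher, 5 lower), 11 had no overlap and 0 were 2-fold apart. Over all probe sets these shares were 59.9% (35.7% higher, 24.2% lower), 57.3% and 8.95%. Probe sets of 1 gene share their target, so these counts are not of independent genes. Fresh TI arrays also differed from fresh TII arrays by brightness: the median difference of all probe sets was 0.17 in the dimmest of 5 equal classes, 0.077 in the fourth class, which holds Kcnj15, Cftr, Clcn3, the brightest Slc12a2 and 3 Slc34a1 probe sets, and −0.098 in the brightest.

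The genes whose 11 values tracked the 2 changing members most closely were found by the root mean square difference after each gene was centred on its own mean, among 4731 other genes. For Kcnj15, they were Cyp2a3, a lung cytochrome P450 (0.28 log2 units), C3, complement component 3 (0.31), and Gsta1, a glutathione transferase (0.31), against a median of 1.45. Cyp2a3 was −2.68 and C3 −2.60 in fresh TI minus fresh TII. The second probe sets of Cyp2a3 and C3 were at −4.07 and −2.0, and the Gsta1 probe set is of a kind that reads several family members. For Slc12a2, they were Tsc22d1, a leucine zipper regulator (0.26), Il33, an alarmin cytokine (0.28), and Sqle, squalene epoxidase of cholesterol synthesis (0.29), against a median of 1.14. Like Slc12a2, all 3 kept an intermediate level in culture, with fresh TI minus cultured TII at −0.66, −0.79 and −1.22. These were chosen for likeness, so the match is a description with no test.

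**Figure D3:**
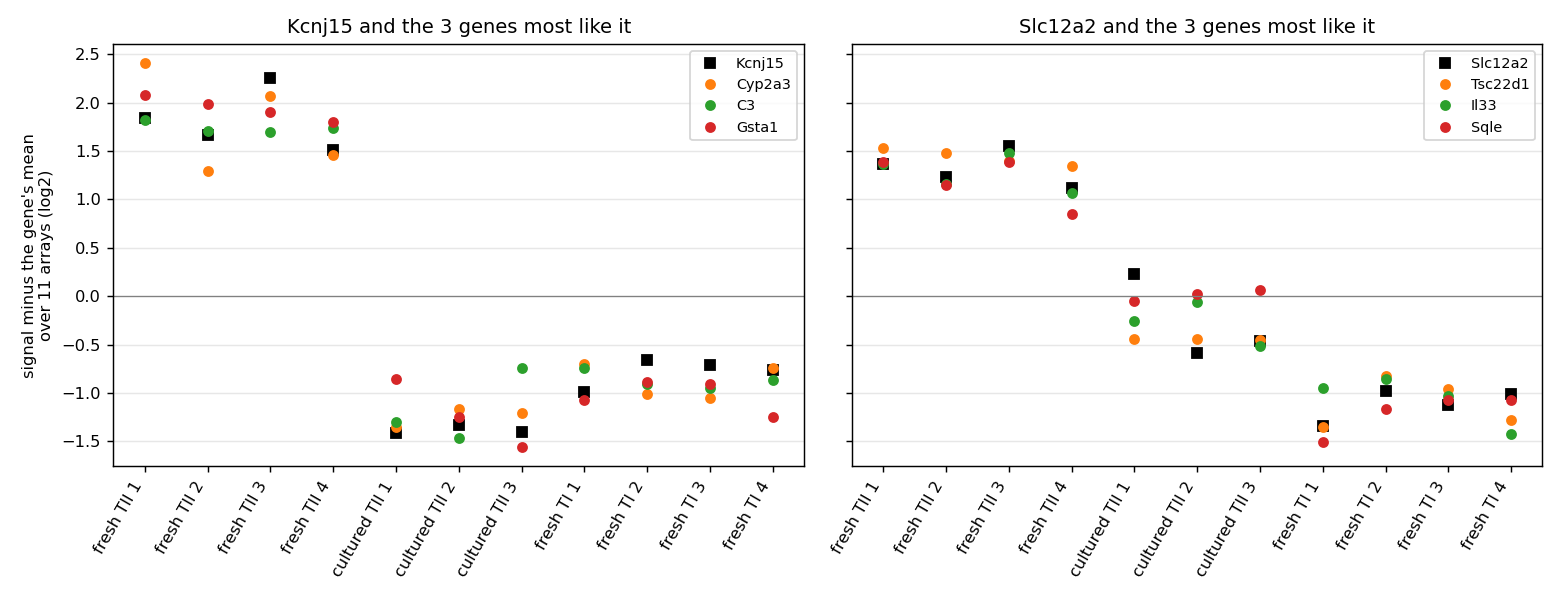
Log2 signal minus each gene's mean over 11 arrays (y axis) on each array (x axis) for Kcnj15 (left) and Slc12a2 (right), black squares, with the 3 genes most like each, coloured points. Cultured TII arrays are the lowest for Kcnj15 and lie between fresh TII and fresh TI for Slc12a2.

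Other genes of chloride, potassium and phosphate transport and of their control were taken from 6 lists holding 136 measured genes, each by its brightest probe set. In fresh TI minus fresh TII, 66 were higher and 13 lower, where 33.0% of all genes were higher and 21.2% lower. With the arrays matched in median and standard deviation the split was 44 higher and 16 lower, where 26.2% of all genes were higher and 22.7% lower. Without probe sets dimmer than the median it was 26 and 11 of 61 genes, where 30.0% of all genes were higher and 28.9% lower. At least 2-fold apart and called was 1 of the 136, where 7.01% of all genes were. That gene was Kcnq1, the pore of a potassium channel used by secretory epithelia, at −1.07 (adjusted p = 3.38e-07 by limma). In cultured minus fresh TII, 15 were higher and 10 lower, where 20.5% and 14.0% of all genes were, and 3 were at least 2-fold apart (all genes 8.68%). In fresh TI minus cultured TII, 69 were higher and 15 lower, where 34.2% and 25.8% of all genes were, or 45 and 19 with the arrays matched, where the shares of all genes were 26.7% and 26.9%.

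Among 17 other chloride channels and carriers, 5 were higher and 3 lower in fresh TI than in fresh TII, shares of 29.4% and 17.6% that lie near those of all genes. Quantile normalization gave 3 and 3 (all genes 28.1% and 20.7%), and matched arrays 3 higher and 4 lower (all genes 26.2% and 22.7%). Slc4a2 (AE2), which exchanges chloride for bicarbonate, was lower in fresh TI (−0.67) and in culture (−0.54; largest adjusted p = 9.93e-05). Slc12a7 (KCC4), which carries potassium and chloride out of the cell, went the other way from Slc12a2 in culture. It rose by 1.34 (SE 0.089, 2.53-fold, adjusted p = 9.1e-08), from a mean of 6.84 on fresh TII arrays to 8.18 on cultured ones, and its fresh TI minus cultured TII difference was −1.63 (adjusted p = 1.94e-08). Lrrc8a, a subunit of the volume-regulated anion channel, was 0.29 higher in culture (adjusted p = 0.00331). Of 18 ligand-gated chloride channel genes, 8 (44.4%) were higher and 1 lower in fresh TI than in fresh TII, against 33.0% and 21.2% of all genes. Quantile normalization left 5 higher and 1 lower (all genes 28.1% and 20.7%), and matched arrays 4 higher and 1 lower (all genes 26.2% and 22.7%). Most of this list was dim: without probe sets dimmer than the median, 3 of the 18 were left, 2 of them higher and 0 lower. In culture the 1 called was Gabrp, the GABA receptor pi subunit, at −0.55 (adjusted p = 0.0114) and −0.64 in fresh TI (adjusted p = 0.00231).

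Of the 16 inward rectifiers other than Kcnj15, 10 (62.5%) were higher and 0 lower in fresh TI than in fresh TII. That is the side opposite to Kcnj15, and of all genes 33.0% were higher and 21.2% lower. The sizes were small, with a median of 0.28 and a highest of 0.44. Quantile normalization left 4 of 16 higher and 0 lower (all genes 28.1% higher), and matched arrays 5 (31.2%) higher and 1 lower (all genes 26.2% higher). Most of the list was dim: without probe sets dimmer than the median, 4 of the 16 were left, 2 of them higher and 0 lower. Kcnj1 (ROMK) was among the brighter ones, at 0.40 (adjusted p = 0.000286). In culture 1 was higher and 1 lower, where 20.5% and 14.0% of all genes were. Kcnj4 was at 0.27 (adjusted p = 0.0391 by limma, arrays overlapping). Kcnj2 was at −0.37 (adjusted p = 0.0184) and dim, with means of 2.59 on fresh TII and 2.23 on cultured arrays. Among 39 other potassium channel genes, 22 (56.4%) were higher and 1, Kcnq1, lower in fresh TI (all genes 33.0% and 21.2%). Quantile normalization gave 15 (38.5%) higher and 2 lower (all genes 28.1% and 20.7%). Matched arrays gave 14 (35.9%) higher and 2 lower (all genes 26.2% and 22.7%). Without probe sets dimmer than the median, 17 of the 39 were left, 7 (41.2%) higher and 1 lower (all genes 30.0% and 28.9%). Kcnq1 was also lower in culture (−0.69, adjusted p = 3.81e-05). Kcne1, a subunit that pairs with Kcnq1, was 0.72 higher in fresh TI on its brightest probe set (adjusted p = 0.000797) and 0.14, not called, on the other.

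Of 11 other phosphate genes, 9 (81.8%) were higher and 0 lower in fresh TI than in fresh TII (all genes 33.0% and 21.2%). With matched arrays 7 (63.6%) were higher and 0 lower (all genes 26.2% and 22.7%). In culture 3 (27.3%) were higher and 1 lower (all genes 20.5% and 14.0%). Enpp1, which makes pyrophosphate outside the cell, was 0.71 higher in fresh TI (adjusted p = 0.00139) and 1.12 higher in culture (adjusted p = 7.88e-05). Slc25a3, the mitochondrial phosphate carrier, was 0.59 higher in culture (adjusted p = 0.000393), and Slc20a2 (PiT-2), a plasma membrane phosphate carrier, 0.34 higher (adjusted p = 0.00971). Of 35 regulators of Cftr and Slc12a2, 12 were higher and 8 lower in fresh TI, and 8 higher and 4 lower in culture. These shares, 34.3% and 22.9%, then 22.9% and 11.4%, lie near those of all genes. Prkcd, protein kinase C delta, was 0.88 higher in fresh TI (adjusted p = 2.08e-06). Adora2b, an adenosine receptor that raises cAMP, was lower in fresh TI (−0.85) and in culture (−0.61), as was Ezr, the membrane linker ezrin (−0.70 and −0.83; largest adjusted p of the 4 was 0.00447). Snap23, a membrane fusion protein, was 1.12 higher in culture (adjusted p = 1.03e-06).

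**Figure D4:**
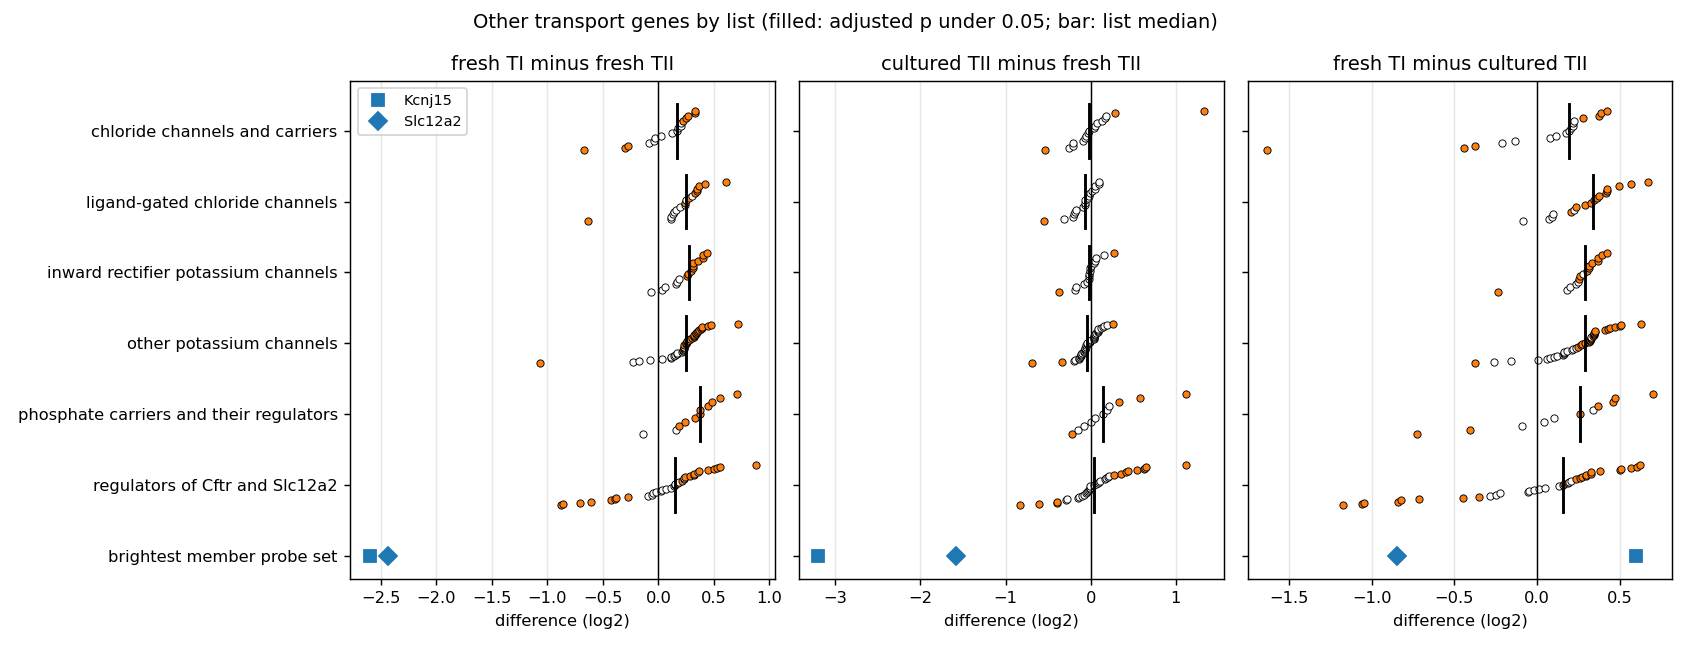
Log2 difference (x axis) of each gene in 6 lists (y axis) for the 3 comparisons, filled where the adjusted p was under 0.05, with a bar at the list median and the brightest Kcnj15 and Slc12a2 probe sets in the bottom line. In fresh TI minus fresh TII both members lie beyond −2, while Kcnq1, the lowest list gene, is at −1.07.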

How the data were processed

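The deposited table holds 1 log2 signal per probe set and array, as processed by the authors; the labels name the cDNA and labelling kits, while summarisation, background correction and normalization are not given in the sources used here. Base 2 was inferred: the highest value, 13.16, would be 520737 as a natural logarithm, above the 65535 of a 16-bit scanner, and is 9172 as a log2. Of 8799 probe sets, 59 controls were left out. Annotation gave 1 gene for 7006 of the rest, several for 308 and none for 1426, and 6985 of the 7006 matched RefSeq symbols by Entrez identifier. Array medians were 5.43 to 5.51, so values were used as deposited. Precision is limited by 3 or 4 arrays per group.

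limma 3.58.1 (lmFit and eBayes, R 4.3.3, tested on simulated data) fitted 3 group means to 11 arrays, with no filter and no block. P-values were adjusted by Benjamini-Hochberg over 8740 probe sets and called under 0.05. Exact permutation tests went through all splits of the arrays, with the code checked on a small example against scipy 1.17.1. A gene was read by its brightest probe set. Named genes were all member probe sets, up to 3 called genes per list, direction and comparison, and the 3 genes most like a member changed by at least 1 log2 unit; not every one of these is printed. The members and lists were chosen with earlier results of these data known. Alternatives covered scaling, dim filters, variance models, weighted arrays, a block for replicate number, a stricter threshold and leaving out each array. Protein sequences were not used here.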

Additional observations from a re-analysis of the deposited data

How the results depend on the processing

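The 36 differences of single member probe sets were refitted under up to 22 alternatives, 780 fits in all, of which 733 kept direction and side of the threshold, 40 lost the call, 4 gained it and 3 turned sign. Kcnj15 and the 2 brightest Slc12a2 probe sets kept their calls and directions in every comparison and alternative run. The turned signs were of differences near 0 in cultured minus fresh TII: Slc12a2 AF086758_at with the replicate block (0.0001), and Slc34a1 rc_AA891726_s_at without fresh TII replicate 1 (−0.0007) or cultured TII replicate 2 (−0.017), which ranged up to 0.042 without another array. At an adjusted p under 0.01, 7 member probe sets were called in fresh TI minus cultured TII. Without probe sets dimmer than the median, the 6 lists held 37 calls in fresh TI minus fresh TII and 42 in fresh TI minus cultured TII, against 79 and 84, since only 61 of 136 genes were left. Leaving out 1 array at a time gave 7 to 10 member calls and 64 to 91 list calls for fresh TI against fresh TII. It gave 5 to 6 and 19 to 29 for culture, and 8 to 11 and 64 to 89 for fresh TI against cultured TII. Of the 21 tests between probe sets of 1 gene, 12 to 15 had no overlap. Shares of all probe sets or genes are not given here for these fits or for the stricter threshold.

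The labels do not say whether the replicate numbers pair the arrays. Deviations from the group means correlated at −0.20 to 0.28 in 10 pairs of the same number and −0.27 to 0.23 in 30 of different numbers. No pairing was seen, but such correlations cannot tell whether arrays shared an animal or isolation. With the replicate block, 9 member probe sets were called in fresh TI minus fresh TII (all probe sets 34.1% higher, 20.7% lower). In cultured minus fresh TII 5 were called (all probe sets 18.1% and 13.4%). In fresh TI minus cultured TII 11 were called (all probe sets 31.2% and 23.2%). Cftr lost its call in fresh TI minus fresh TII (adjusted p = 0.0643) and in cultured minus fresh TII (adjusted p = 0.0508). Signals of the dimmest probe sets, such as AF086758_at, may lie near background, which the table does not give.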
